A study of Mus musculus with 23 samples.

Results

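The 10 immediate early transcription factor genes Fos, Fosb, Fosl1, Fosl2, Jun, Junb, Jund, Egr1, Ier3 and Myc were followed across TM4 mouse Sertoli cells treated with MEHP or with 4 other plasticizers. They were chosen by name, as the array probes whose RefSeq transcript belongs to one of these genes. The array carried 11 probes for the 10 genes, among 26582 probes for 20145 named genes. Fosl2 had 2 probes and the other members had 1 each. The probe for Fos was printed at 10 spots and that for Myc at 2.

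Immediate early genes are switched on within minutes of a growth factor or stress signal, without new protein synthesis, largely through the ERK and other MAP kinase pathways. Fos, Fosb, Fosl1 and Fosl2 encode the FOS proteins, and Jun, Junb and Jund encode the JUN proteins that pair with them to form the transcription factor AP-1. Egr1 encodes a zinc finger factor, Myc a factor that drives growth and ribosome production together with MAX, and Ier3 a stress-inducible protein that is itself not a DNA-binding factor but is induced alongside the others. In Sertoli cells, the somatic cells that nurse the developing germ cells, AP-1 and EGR1 are part of the response to hormones and growth factors.

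TM4 cells, an immortalized line from mouse testis, received 100 µM of MEHP, DINCH, DOM, BDB or DOS, or the 1% DMSO vehicle alone, for 48 h in serum-containing medium. MEHP is mono(2-ethylhexyl) phthalate, the monoester to which the phthalate plasticizer DEHP is converted. DINCH is a commercial cyclohexane dicarboxylate, DOM dioctyl maleate, DOS dioctyl succinate and BDB a butanediol dibenzoate. Each group had 4 arrays except DOS with 3, for which the methods give exclusion of 1 replicate for high background. The single dose and late time mean that the levels describe cells after prolonged exposure, not the first response, and a whole-culture measurement cannot tell fewer expressing cells from less RNA per cell.

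Sequences upstream of 3 members are printed. Fos, dim with DINCH and tested only through its level in DMSO, was called lower with DINCH, though not under every processing. Fosl2 rose with DOM, and Jun, the partner of both proteins, differed between compounds. No window was read for Fosl1, Egr1 and Myc. Each run is the 250 bases before the annotated start, read in the direction of transcription from RefSeq on mouse build GRCm38.p6, at chr12:85473640-85473889 (plus strand), chr5:32136222-32136471 (plus strand) and chr4:95052223-95052472 (minus strand). Capitals mark motif matches. The motifs, searched on both strands, were the cyclic AMP response element TGACGTCA, its core TGACGT, which lies within it, the relative TGACNTCA, which covers it, the AP-1 site TGANTCA, the E-box CACGTG, the GC box GGGCGG, the CArG box that serum response factor binds, the CCAAT box and TATAAA, the TATA box.
Fos promoter: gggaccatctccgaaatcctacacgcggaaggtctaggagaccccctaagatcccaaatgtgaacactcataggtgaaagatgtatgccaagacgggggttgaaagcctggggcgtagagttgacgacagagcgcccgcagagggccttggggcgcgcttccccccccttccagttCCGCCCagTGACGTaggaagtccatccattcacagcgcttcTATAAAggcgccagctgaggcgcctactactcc
Fosl2 promoter: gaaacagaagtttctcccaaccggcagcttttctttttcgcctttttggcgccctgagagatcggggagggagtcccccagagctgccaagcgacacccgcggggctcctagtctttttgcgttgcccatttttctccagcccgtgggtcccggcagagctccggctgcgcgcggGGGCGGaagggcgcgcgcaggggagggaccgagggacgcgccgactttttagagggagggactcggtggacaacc
Jun promoter: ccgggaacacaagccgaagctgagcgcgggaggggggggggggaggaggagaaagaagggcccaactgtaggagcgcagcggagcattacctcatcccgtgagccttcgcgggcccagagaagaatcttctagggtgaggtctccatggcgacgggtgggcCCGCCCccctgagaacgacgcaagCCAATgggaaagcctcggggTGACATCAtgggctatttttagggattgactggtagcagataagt
The Fos window held TGACGT with its start 66 bases before the transcription start, a TATAAA at 33 bases and GGGCGG on the other strand at 74 bases. The Jun window held TGACATCA, a match to TGACNTCA, at 45 bases, CCAAT at 65 bases and GGGCGG on the other strand at 89 bases. The Fosl2 window held only a GGGCGG, at 75 bases. Of 32851 mouse promoter windows of the same length, 6.47% held TGACGT, 7.49% TGACNTCA, 12.4% TATAAA, 32.7% GGGCGG and 33.8% CCAAT. None of the 3 windows held TGACGTCA (1.55% of all windows), the AP-1 site in the form TGANTCA (6.75%), the E-box (6.02%) or the CArG box (1.47%). Sequence further upstream was not read, so elements lying there would be missed. TGACNTCA was added to the search after the sequences had been seen, and windows were read for 7 of the 10 members.

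Levels are given as the log2 of the scanner's background-corrected signal minus the log2 of the 75th percentile signal on the same array, so a level of 0 equals that percentile and a difference of 1 is 2-fold. A gene with several probes was read from its brightest. Each difference was tested with limma on the arrays of its 2 groups alone, with Benjamini-Hochberg adjustment over every tested probe. A gene was called when its adjusted p was below 0.05 and its change exceeded 1.5-fold. The 75th percentile signal ran from 204.6 to 350.7 units over the 23 arrays, with no saturated spot, and the number of arrays limits the precision. All 10 members were tested in every comparison. The members other than Fos were well above background on each of the 23 arrays, and Fos was so on 20, the exceptions being DINCH replicates 1, 2 and 4. The 5 comparisons with DMSO share the same DMSO arrays. Slide rows 2 and 4 held DMSO, DOM and DOS while rows 1 and 3 held MEHP, DINCH and BDB, so row and group cannot be told apart where MEHP, DINCH or BDB is set against DMSO or DOM.

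**Figure D1:**
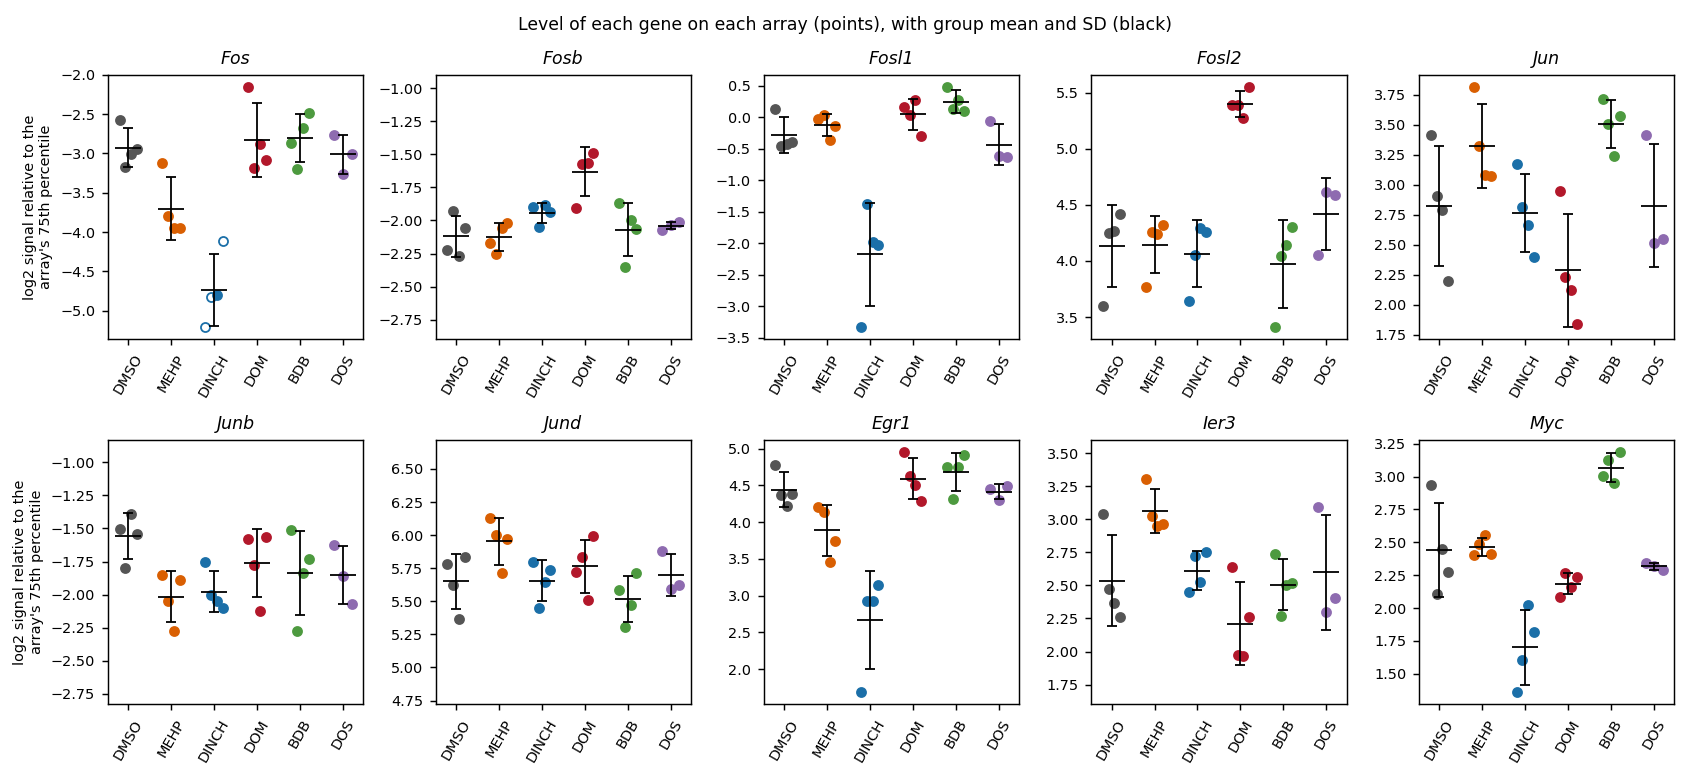
Level of the 10 genes on each of the 23 arrays, as log2 signal relative to the array's 75th percentile (vertical axis; each panel has its own range of at least 2 units), by group. Points are arrays in order of replicate number, open where the probe was not well above background, and black marks give the group mean and SD. Fos, Fosl1, Egr1 and Myc sit lowest in DINCH and Fosl2 highest in DOM.

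With DINCH, 4 of the 10 genes were called, all lower: Fosl1, Egr1, Myc and Fos, the last dim with DINCH and tested because it passed the brightness filter in DMSO. For comparison, 6.97% of all 11913 genes tested were called with DINCH, 3.17% of them lower than DMSO. In these 4 members every DINCH array lay below every DMSO array, a separation in that direction seen in 12.4% of all genes. The other 6 members were not called, with differences from -0.42 (Junb, SE 0.12, adjusted p = 0.0587) to 0.18 (Fosb).

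Fos had log2 levels of -2.58, -3.17, -3.01 and -2.95 on the DMSO arrays and of -5.21, -4.83, -4.80 and -4.11 with DINCH. The groups were separated by a gap wider than the spread within DMSO. The probe was well above background on 4 of 4 DMSO arrays but on 1 of the 4 DINCH arrays, so the size of the difference is uncertain and it was tested only through its level in DMSO. On the measured signals the difference was -1.81 log2 units (SE 0.22, adjusted p = 0.00363 from limma). With normexp background correction, which compresses dim probes, the difference was -0.28 (adjusted p = 0.108) and no longer called.

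Fosl1, which encodes FRA1, had log2 levels of 0.13, -0.46, -0.42 and -0.39 with DMSO and -3.33, -1.38, -1.98 and -2.02 with DINCH. All 4 DINCH arrays were lower, replicate 1 by far the most. The fall was 1.89 log2 units (3.72-fold, SE 0.36, adjusted p = 0.0137), and the difference was -1.51 (adjusted p = 0.0113) without DINCH replicate 1.

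Egr1 showed 4.78, 4.37, 4.22 and 4.39 on the DMSO arrays and 1.68, 2.92, 2.93 and 3.14 with DINCH, on the same log2 scale. Again replicate 1 was the lowest of a group that lay wholly below DMSO. Egr1 fell by 1.77 log2 units (3.41-fold, SE 0.29, adjusted p = 0.00895), and the difference was -1.44 (adjusted p = 0.00844) without DINCH replicate 1. Within the 3 slides the difference for Egr1 was -3.09, -1.37 and -1.35, for Fosl1 -3.47, -0.94 and -1.61, and for Fos -2.63, -1.74 and -1.51. Every slide thus gave a lower level with DINCH, and with the slide as a block the 3 genes were called with differences of -1.83, -1.87 and -1.90. Without the filter on dim probes, which raised the number of genes tested to 20145, only Fos of the 4 genes was called, and the adjusted p was 0.0745 for Egr1 and 0.0915 for Fosl1.

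Myc had log2 levels of 2.94, 2.11, 2.45 and 2.27 with DMSO and of 1.36, 1.61, 2.02 and 1.82 with DINCH. The lowest DMSO array and the highest DINCH array were close together. The fall of 0.74 log2 units (1.67-fold, SE 0.20, adjusted p = 0.0463) was the least secure of the 4, as it was called in 7 of 18 other settings. With the replicate number as a block, which fits these groups, the adjusted p was 0.0623, and it ranged up to 0.114 when any of the 4 DMSO arrays or DINCH replicate 1, 2 or 4 was left out, the difference staying between -0.85 and -0.57. Within slides it was -1.58, -0.67 and -0.35.

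DOM treatment raised Fosl2 and left the other 9 members uncalled. With DOM 18.6% of all 12001 genes tested were called, 8.80% of them higher. Fosl2 encodes FRA2, a FOS protein without the strong activation domain of FOS itself. Its log2 levels were 3.60, 4.25, 4.27 and 4.42 with DMSO and 5.39, 5.39, 5.27 and 5.55 with DOM. No DOM array came near the DMSO range. The rise was 1.27 log2 units (2.41-fold, SE 0.17, adjusted p = 0.00102), it was called in all 18 other settings, and within slides it was 1.79, 1.01 and 1.13. The dimmer second probe of Fosl2 was 0.42 higher with DOM (adjusted p = 0.0241), under 1.5-fold, and was also 0.54 higher with DINCH (adjusted p = 0.0237), where the brighter probe differed by -0.07.

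Fosb was 0.49 log2 units higher with DOM than with DMSO (SE 0.13, adjusted p = 0.0172), short of 1.5-fold. Its levels of -1.91, -1.57, -1.56 and -1.49 lay just above the DMSO levels of -2.22, -1.93, -2.27 and -2.06. Fosb and Fosl2 were the 2 members whose DOM and DMSO arrays did not overlap, a separation found in 39.4% of all genes, 19.0% with DOM higher. Jun differed by -0.54 from DMSO (SE 0.29, adjusted p = 0.184), and by -0.66 with the slide as a block, where it was called (adjusted p = 0.0251). DOM differences for Fos and Egr1 were 0.10 and 0.15.

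MEHP treatment called none of the 10 members, against 1.53% of all 11947 genes, and 5 of them had an unadjusted p below 0.05, as did 18.9% of all genes. Fos had log2 levels of -3.12, -3.79, -3.94 and -3.95 with MEHP. Only replicate 1 reached into the DMSO range. Its difference of -0.78 (SE 0.20, adjusted p = 0.0968) was -0.88 and -0.85 within slides 1 and 2 and larger still within slide 3, and it was called with the slide as a block (-0.90, adjusted p = 0.0384). Egr1, at 4.20, 4.13, 3.46 and 3.74, lay below all DMSO arrays with a difference of -0.55 (SE 0.18, adjusted p = 0.176), and was likewise called with the slide as a block (-0.70, adjusted p = 0.0172). Junb, which can oppose JUN, was the other member whose groups did not overlap, with a difference of -0.46 (adjusted p = 0.106). Of all genes, 14.4% had groups that did not overlap, 6.63% with MEHP lower. Ier3, at 3.31, 3.02, 2.95 and 2.96, differed by 0.52 (SE 0.17, adjusted p = 0.167), and DMSO replicate 1, at 3.04, was the one control array within its range. Without that array the difference was 0.69 (adjusted p = 0.0308). Jund differed by 0.30 and Myc by 0.02.

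BDB and DOS each called 0 of the 10 members and 0% of all genes by limma. With BDB, 3 members had an unadjusted p below 0.05, all on the higher side, as did 16.3% of all genes in either direction. Myc stood between 2.95 and 3.19 on the 4 arrays, just above the highest DMSO array. A separation in that direction was seen in 3.29% of all genes, and in either direction in 12.0%. The Myc difference was 0.62 (SE 0.17, adjusted p = 0.141), and it was called when all groups were fitted together (adjusted p = 0.0242). Jun, at 3.71, 3.51, 3.24 and 3.57 with BDB, differed by 0.68 (SE 0.23, adjusted p = 0.209) and Fosl1 by 0.53 (SE 0.15, adjusted p = 0.156), both with overlapping arrays. With DOS no member reached an unadjusted p below 0.05, as 6.34% of all genes did. DOS differences lay between -0.29 for Junb and 0.28 for Fosl2, and the widest interval was that of Jun, from -0.71 to 0.71.

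**Figure D2:**
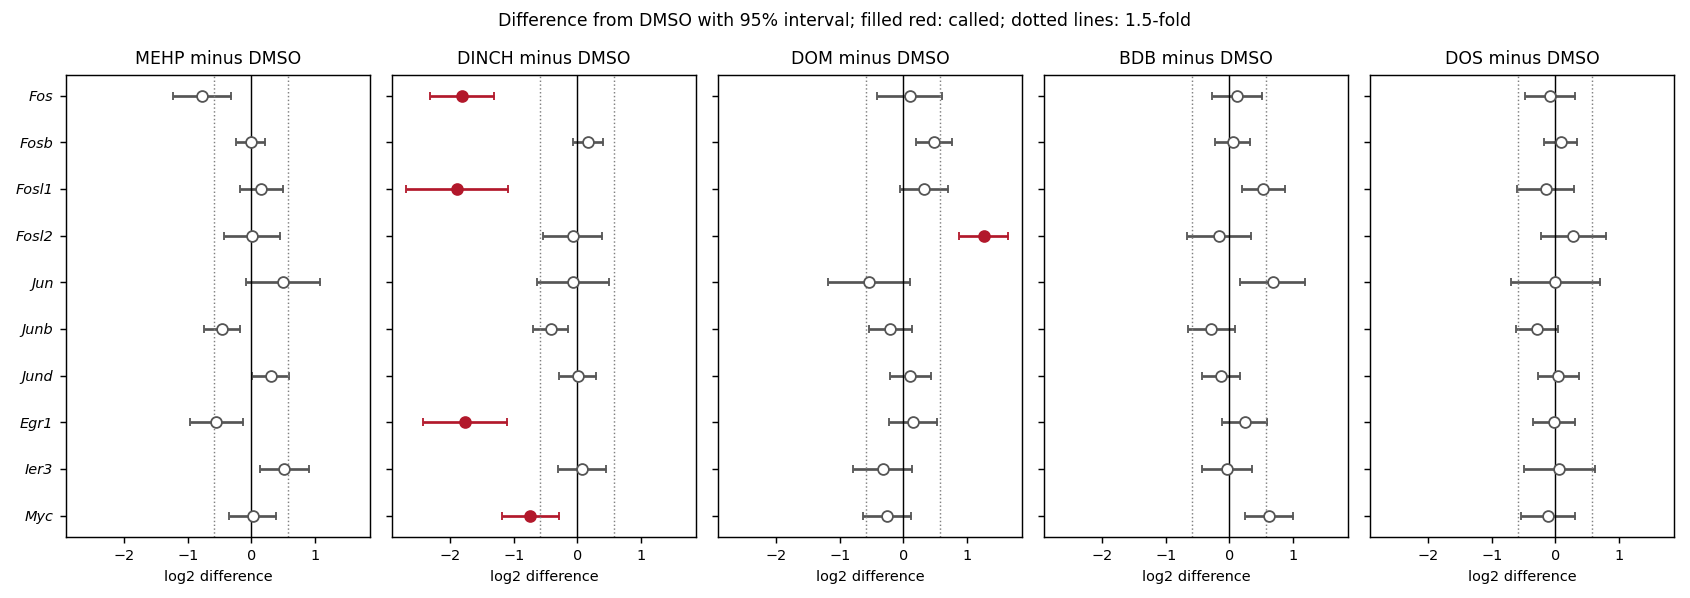
Difference from DMSO in log2 units (horizontal axis) for each of the 10 genes (rows) and the 5 compounds (panels), with its 95% interval from limma. Filled red points are called, and dotted lines mark 1.5-fold. The called points are Fos, Fosl1, Egr1 and Myc with DINCH, all on the lower side, and Fosl2 with DOM on the higher side.

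The members varied unequally among themselves. Across the 9 genes measured on every array, the distance between the highest and lowest group mean ran from 0.44 log2 units for Jund to 2.43 for Fosl1, with 2.01 for Egr1, 1.43 for Fosl2, 1.36 for Myc and 1.22 for Jun. Fosb, Junb and Jund, at 0.49, 0.46 and 0.44, were the steadiest. By group mean Egr1 and Fos shared 1 order, which ran from BDB through DOM, DMSO, DOS and MEHP down to DINCH. Their upper 4 groups overlapped, so the order among those is uncertain, and Fos was well above background on only 1 of its 4 DINCH arrays. For Egr1 MEHP was separate from both neighbours, whereas for Fos the MEHP and DOS arrays overlapped. Myc also began with BDB and ended with DINCH, and both ends were separate from the next group. For Fosl2, DOM was apart from a run of 5 overlapping groups. Jun ran from BDB at 3.51 ± 0.20 (SD, n = 4) to DOM at 2.29 ± 0.47 with every pair of neighbours overlapping.

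The genes whose levels followed Fosl1 most closely over the 23 arrays, among 11157 genes measured on each, were Egr1 (r = 0.91), Dusp6 (0.90) and Slc7a11 (0.90). Those closest to Egr1 were Dusp6 (r = 0.93), Ier2 (0.91) and Fosl1 (0.91). Dusp6 encodes a phosphatase that switches off ERK and Slc7a11 the cystine transporter. Without the 4 DINCH arrays, over the remaining 19, the values were 0.48, 0.52 and 0.17 for Fosl1, and 0.66, 0.62 and 0.48 for Egr1. The arrays share groups and slides, so these values describe the arrays and carry no test.

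Compounds were then compared directly for 6 pairs, all at 100 µM and 48 h, with p-values also adjusted for each gene over the 6 pairs. DOM and DOS are dioctyl esters that differ by the double bond of the maleate. Fosl2 was called in this pair, alone among the members, where 13.5% of all 11928 genes were. The DOS arrays read 4.05, 4.62 and 4.59, and all 4 DOM arrays were above them, as for 17.8% of all genes. The difference of 0.98 (95% interval 0.62 to 1.35, adjusted p = 0.00597 over all probes and 0.000411 over the 6 pairs) was 1.34 and 0.95 within the 2 slides that held both. Without the filter on dim probes its adjusted p was 0.069. The second Fosl2 probe differed by 0.51 (adjusted p = 0.0159), under 1.5-fold. Fosb differed by 0.41 (0.12 to 0.69, adjusted p = 0.0536) and Fosl1 by 0.48 (0.05 to 0.91, adjusted p = 0.109), neither of them called. Intervals of other members reached from -1.22 to 0.14 for Jun and from -0.36 to 0.09 for Myc, so Fos, with -0.38 to 0.75, and Egr1, with -0.19 to 0.55, could still differ by up to about these amounts. DOM and DOS shared slide rows.

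DINCH and BDB shared slide rows as well, and 5 of the 10 members were called, all lower with DINCH, against 8.89% of all 11897 genes and 4.01% lower. Fosl1 differed by -2.43 (SE 0.34, adjusted p = 0.00309), Egr1 by -2.01 (SE 0.29, adjusted p = 0.0033), Fos by -1.93 (SE 0.23, adjusted p = 0.00179), Myc by -1.36 (SE 0.14, adjusted p = 0.00129) and Jun by -0.74 (SE 0.17, adjusted p = 0.0191). Over the 6 pairs the adjusted p of these genes was 0.00739 for Jun and at most 0.000212 for the others. For these 5 genes every DINCH array lay below every BDB array, as for 11.3% of all genes. Within slides Myc differed by -1.64, -1.43 and -1.27. Fos, well above background on 1 of the 4 DINCH arrays, was tested only through its level in BDB. Its difference was -0.36 after normexp correction and then not called, as its change was under 1.5-fold.

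MEHP and DINCH, also on the same rows, differed in Fosl1 by 2.05 (SE 0.34, adjusted p = 0.02) and in Myc by 0.76 (SE 0.14, adjusted p = 0.0275), higher with MEHP, against 2.09% of all 11836 genes called. Egr1 (1.22, adjusted p = 0.0731) and Fos (1.04, adjusted p = 0.0653) were not called. Fos, dim with DINCH, was tested only through its level in MEHP, and its difference ran from 0.03 to 1.24 over 18 other settings. The calls were few enough to vanish when MEHP replicate 1, 2 or 4 was left out. Against BDB, MEHP was lower in Fos (-0.89), Egr1 (-0.79) and Myc (-0.60), with adjusted p between 0.0105 and 0.0435 where 2.36% of all 11938 genes were called. With any array left out, 0 to 1 of the 3 calls were kept.

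DOM exceeded DINCH in 4 members, against 20.5% of all 11883 genes called and 9.93% higher. The differences were 2.22 for Fosl1, 1.92 for Egr1, 1.91 for Fos and 1.34 for Fosl2, each with an adjusted p of at most 0.0012. Fos again was tested only through its level in the other group, and after normexp correction its difference was 0.29 (adjusted p = 0.0576) and not called. The second Fosl2 probe differed by -0.11 (adjusted p = 0.429), on the other side from the brighter one. MEHP and DOM differed in 5 members, against 17.4% of all 11919 genes. MEHP was lower in Fosl2 (-1.25, with the second probe at -0.44, adjusted p = 0.133), Fos (-0.87) and Egr1 (-0.71). It was higher in Jun (1.04, SE 0.25, adjusted p = 0.0119) and Ier3 (0.85, SE 0.16, adjusted p = 0.00373). Of 18 other settings, Fos was called in 10, Egr1 in 14, Jun in 17, and Fosl2 and Ier3 in all 18. The DOM arrays read 2.95, 2.23, 2.12 and 1.84 for Jun, below all MEHP arrays at 3.82, 3.32, 3.08 and 3.07. A separation in that direction was seen in 21.5% of all genes. In both of these pairs slide row and compound cannot be told apart.

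**Figure D3:**
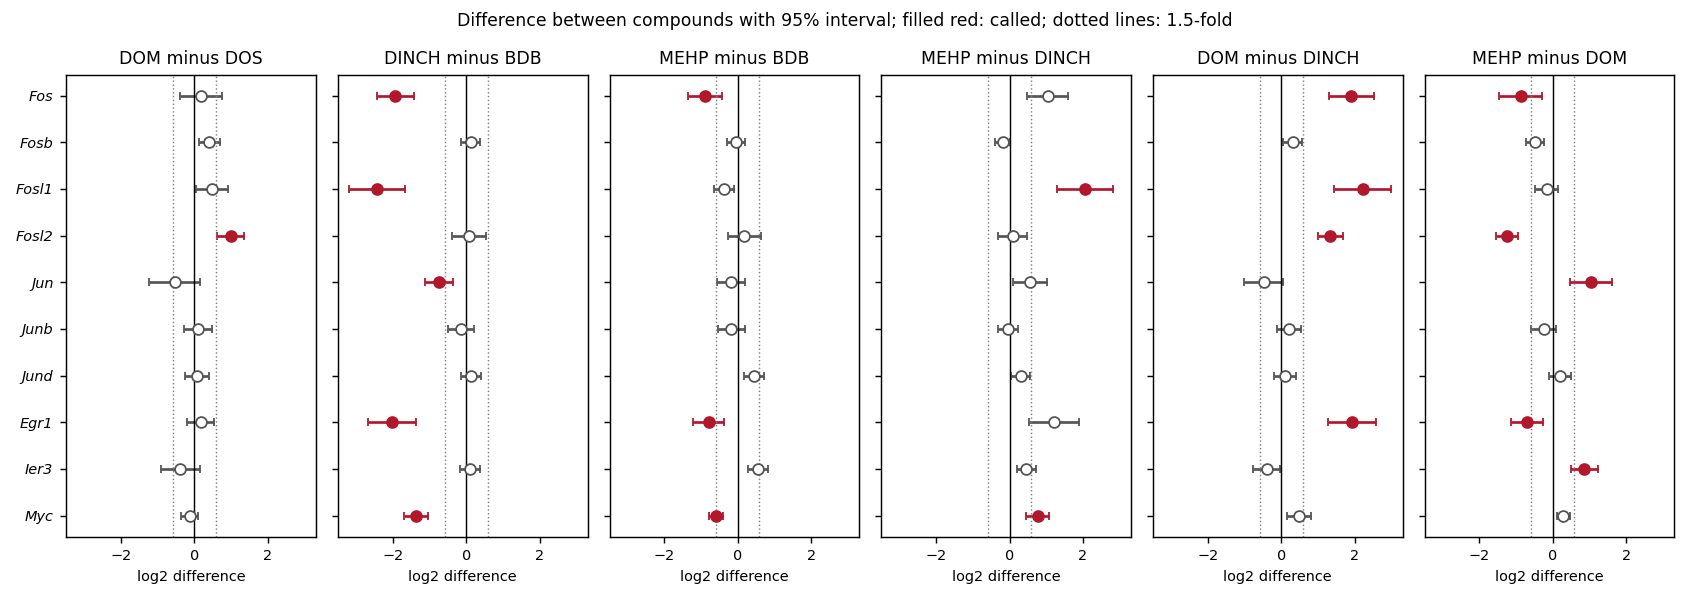
Difference between compounds in log2 units (horizontal axis) for each of the 10 genes (rows) in the 6 pairs compared (panels), with its 95% interval from limma. Filled red points are called, and dotted lines mark 1.5-fold. The first 4 panels hold pairs that shared slide rows, and the widest differences are those of Fosl1, Egr1 and Fos in the panels with DINCH.

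Genes of the same pathways were read from 5 lists. With DINCH, 3 of the 31 tested members of a list of other immediate early genes were called, all lower, where 3.17% of all genes were, and the list's median was -0.19 against 0.00 over all genes. These were Egr2, a relative of Egr1, which fell by 1.68 log2 units (SE 0.31, adjusted p = 0.0127), Ier2, which fell by 1.23 (SE 0.16, adjusted p = 0.00489), and the orphan nuclear receptor gene Nr4a1, which fell by 0.60 (SE 0.12, adjusted p = 0.0193). None of 9 other AP-1 family genes, such as those of the ATF, BATF and MAF proteins, was called. Of 12 known AP-1 target genes, 4 were called, 2 higher and 2 lower, against 6.97% of all genes. Among them the chemokine gene Ccl2 rose by 1.04, whereas the EGF receptor ligand genes Ereg and Hbegf fell by 0.78 and 0.60.

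MYC and its pathway were read in the same way. None of 9 genes for MYC partners and antagonists was called with DINCH. Of 27 MYC target genes, 6 were called lower, against 3.17% of all genes, and 0 higher, with a median of -0.35. Tfrc, the transferrin receptor gene, fell by 1.15, Wdr12 and Nop56, which serve in ribosome assembly, by 0.92 and 0.83, and Shmt2, a mitochondrial folate enzyme gene, by 0.80. With MEHP, Egr2 fell by 0.78 (SE 0.12, adjusted p = 0.0192) and Tfrc by 0.81 (SE 0.14, adjusted p = 0.0312), the only calls in the 5 lists. Egr2 was 1 of 31 other immediate early genes tested and Tfrc 1 of 27 MYC target genes. Of all genes, 1.53% were called with MEHP, 0.502% lower, so so few calls say little about either list. With BDB and with DOS the 5 lists held 0 calls.

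DOM gave a different set of calls in the same lists. Of 32 other immediate early genes tested, 9 were called higher and 3 lower, where 8.80% of all genes were called higher and 9.76% lower, with a median of 0.31 against -0.03 over all genes. Nr4a1 rose by 1.71 (SE 0.19, adjusted p = 0.000421), Ptgs2, encoding cyclooxygenase-2, by 1.38 and the transcription factor gene Klf2 by 0.94, whereas Klf4 fell by 1.13 (SE 0.12, adjusted p = 0.000447). The other genes called lower, named after their values were seen, were Ccn2 (-1.34) and Tnfaip3 (-0.93), both with overlapping arrays. In the AP-1 family Maf rose by 0.82 and Atf3 fell by 1.24, and Batf2, named after its values were seen, was also called lower (-1.27, overlapping arrays).

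Of the 12 AP-1 target genes, 4 fell with DOM and 1 rose, with a median of -0.47, to be read against the same shares of all genes. Spp1, encoding osteopontin, fell by 1.86, the cyclin D1 gene Ccnd1 by 1.32, the hyaluronan receptor gene Cd44 by 1.08 and Hmga1 by 1.05. Of the 27 MYC target genes, 11 fell, against 9.76% of all genes, and 1 rose, with a median of -0.54. Shmt2 fell by 1.80, the spermidine synthase gene Srm by 0.94, and the nucleolar protein genes Nop56 and Nop58 by 0.93 and 0.90. Odc1, encoding ornithine decarboxylase and named after its values were seen, was 0.66 higher with overlapping arrays. Myc itself differed from DMSO by -0.26 (adjusted p = 0.275), while Mxd3, a MYC antagonist gene and the 1 call among 9 partners and antagonists, fell by 1.86 (SE 0.21, adjusted p = 0.000511).

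**Figure D4:**
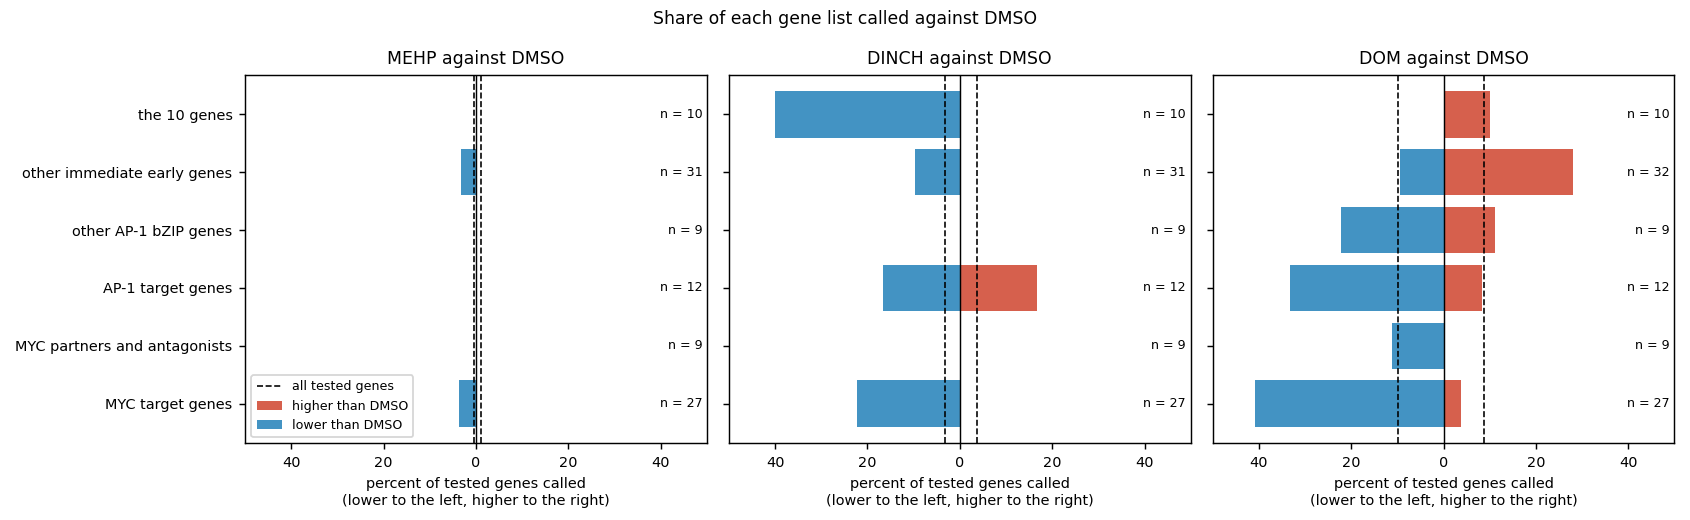
Share of the tested genes of each list that were called (horizontal axis, percent; lower than DMSO to the left, higher to the right) for MEHP, DINCH and DOM, with n the number tested. Dashed lines give the share of all tested genes called in each direction. With DINCH 4 of the 10 genes are called lower, and with DOM 11 of 27 MYC target genes are.

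Markers of the labelled cell type were partly absent. Among 11 Sertoli markers, Gata4, Inhbb and Dhh were well above background on all 23 arrays, Sox9 on 20, and Wt1, Fshr and Cldn11 on none. Of 6 peritubular or fibroblast markers, Acta2, Col1a1, Col1a2 and Pdgfra were so on all arrays. Of 5 germ cell markers, 4 were on none, and of 3 macrophage markers only Csf1r was on all. With DINCH, where Fos, Fosl1, Egr1 and Myc were called lower, Dhh, the 1 call among 5 Sertoli markers tested, rose by 1.09. The other 4 lay on the lower side and the median was -0.16. Of all genes tested, 6.97% were called with DINCH. With DOM, where Fosl2 rose, 1 of 5 Sertoli markers tested was called higher (Inhbb, 1.61) and 1 lower (Sox9, -0.92). Of 4 fibroblast markers tested, 1 was called, Pdgfra, which rose by 0.86. These counts stand beside 8.80% of all genes called higher with DOM and 9.76% lower, and lists this short cannot be told from those shares. The log2 of the summed signal of the fibroblast markers lay between 9.23 and 9.59 with DOM and between 8.95 and 9.39 with DMSO. That of the Sertoli markers lay between 5.41 and 6.10 with DOM and between 3.78 and 4.79 with DMSO. The part of either sum in the result was not tested.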

How the data were processed

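RNA from 23 cultures of TM4 cells was hybridized by the authors to Agilent mouse 8x60K 1-colour arrays. Scans were read with Feature Extraction 11.5.1.1. The deposited processed signals are background-corrected intensities on a linear scale. A deposited log2 table, percentile-shifted and then median-centred over samples by the authors, served only as an alternative. Each of its columns correlated best with its own array's scanner values (r at least 0.998 across probes), and centring leaves its levels without a common zero.

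Control spots and outlier spots were left out, spots of a probe were averaged, and the log2 signal minus the log2 of the array's 75th percentile was analysed in R 4.3.3 with limma 3.58.1. Testing required that, in 1 or both groups, all arrays had the probe flagged as well above background and not under the 20th percentile of signal. The deposited arrays are described as biological replicates. The test was checked on simulated data. Figures were drawn with matplotlib 3.10.9.

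The members and the gene lists were chosen with earlier results of these data known. Besides the members, the genes named from each list are up to 4 called genes per comparison with the largest change among those whose 2 groups did not overlap. Some members of the lists are counted but not reported here by name.

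Alternatives were quantile normalization, normexp background correction with an offset of 50, testing every probe whatever its brightness, asking for detection on a single array, blocking on the slide or on the replicate number, fitting the 6 groups jointly, retaining outlier spots, a variance trend, the deposited log2 table, the median over a gene's probes, and each array left out. Replicate numbers were taken to pair the arrays where every same-numbered pair correlated over 0.1 in its deviations from the group means. This held for DINCH and DMSO (0.16 to 0.56), BDB and DMSO, DOS and DMSO, DOM and DOS, MEHP and DOM, and DINCH and BDB. The pairing was found from the values, since the labels state none. Same-numbered arrays often shared a slide, and where they did, a pairing of cultures and a shared slide cannot be told apart.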

Additional observations from a re-analysis of the deposited data

Results flagged for a closer look

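In 50 groups of 4 arrays tested by Dixon's ratio, 3 held an array far from the others, and chance flags about 1 in 20 groups. All 3 arrays were replicate 1. Fosl1 stood at 0.13 in DMSO replicate 1, above the other DMSO arrays at -0.46 to -0.39. Egr1 stood at 1.68 in DINCH replicate 1, below the others at 2.92 to 3.14. Fosl2 stood at 3.77 in MEHP replicate 1, below the others at 4.24 to 4.32. Slide 1 held every replicate 1 array, and Jun was highest on replicate 1 in 6 of 6 groups, Ier3 highest in 5 of 6 and Fosl2 lowest in 5 of 6.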

How the results depend on the processing

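The count of members called with DINCH against DMSO was 4, and 1 (Fos) without the filter on dim probes, where 20145 genes were tested. It was 3 to 4 with each array left out. Fosl2 with DOM was called under each alternative with a test, and the count for DOM was 2 with the slide as a block. With MEHP against DMSO the count of 0 became 2 with the slide as a block, 1 with the replicate block (Fos, adjusted p = 0.033, although the numbers did not pair these arrays), and 0 to 1 with an array left out. For BDB against DMSO it was 1 (Myc) with all groups in 1 fit. DOS against DMSO gave 0 under each alternative.

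For DOM against DOS the count was 0 without the filter and 2 with the slide as a block. For MEHP against DINCH it was 0 without the filter, 0 with detection on 1 array, 4 with all groups in 1 fit, and 0 to 2 with an array left out. For MEHP against DOM it was 2 without the filter and 3 to 5 with an array left out. For MEHP against BDB it was 3, and 1 after normexp correction, 0 without the filter, 1 with detection on 1 array, 1 with the replicate block and 0 to 2 with an array left out. DOM against DINCH, with 3 to 5 members called, and DINCH against BDB, with 4 to 5, stayed within 1.5 times the count of the report. No result reversed. The replicate block changed no other call of a member than those given here and that of Myc with DINCH.

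The median over the probes of a gene could be taken only for Fosl2, as the other 9 members have 1 probe, and gave 0.84 for DOM against DMSO with no test. Over all genes, leaving out the filter on dim probes moved the calls from 183 to 3 with MEHP and from 830 to 83 with DINCH. Fos, the member that was not well above background on each array, differed by -0.28 between DINCH and DMSO after normexp correction.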
